A study of Mus musculus with 36 samples.

Results

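The transcripts described here are those of the kappa light chain V genes (Igkv), the genes that supply the variable part of the kappa chain of the B cell receptor. Members were the rows of the RNA-seq table of sorted B cell progenitors whose symbol begins with Igkv and that held 10 or more normalized counts in 2 or more of its 8 libraries. They numbered 118 of 162 Igkv rows in the table, which lists 46078 rows in all, of which 17649 passed the same filter. The other 44 Igkv rows lay below the filter, and 21 of them were listed at 0 in all 8 libraries. Just inside the threshold were Igkv3-8 and Igkv1-131, whose second highest library held 10.9 and 12.02 normalized counts, and just outside it were Igkv1-108 and Igkv3-11, with 7.32 and 6.42. Of the members, 102 passed in both the pro-B and the pre-B libraries, 15 passed only through the pre-B libraries and 1, Igkv3-6, only through the pro-B libraries. The 15 were Igkv1-35, Igkv1-131, Igkv1-132, Igkv2-107, Igkv3-8, Igkv4-75, Igkv7-33, Igkv8-18, Igkv8-26, Igkv8-31, Igkv9-119, Igkv11-114, Igkv18-36, Igkv20-101-2 and 1 row of Igkv19-93. A member that passed in a single stage had to differ between stages, so its direction is not a finding, and counts are also given for the 102.

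Marrow of 2 wild-type and 2 Sirt7-/- mice, all 129Sv, was sorted, the latter with a germline deletion of Sirt7 exons. Sorted cells were B220+ and IgM-, and each mouse gave 1 library of their CD43+ fraction (pro-B) and 1 of their CD43- fraction (pre-B). Cultured pro-B cells made up the other 16 RNA libraries, grown on OP9 stroma with interleukin 7, stem cell factor and FLT3 ligand after retroviral transfer. Pax5-/- cells came from fetal liver on the C57BL/6 background. They received empty vector (EV), wild-type Pax5 (Pax5 WT) or Pax5 with a lysine changed to glutamine (K198Q) or arginine (K198R), 2 libraries each. Anti-Pax5 ChIP-seq was done in 2 replicates for each of the 3 Pax5 forms. On the 129Sv background, wild-type cells from marrow received EV and Sirt7-/- cells from marrow received EV, Pax5 WT or K198R, again with 2 libraries each. SIRT7 is a deacetylase of the sirtuin family, and Pax5 is the transcription factor that commits cells to the B lineage. The sorted libraries held between 50004827 and 55536608 reads. The p-values measure only the spread between these libraries.

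Kappa V genes are spread over a long stretch of the locus upstream of a small cluster of joining (J) segments and a single constant gene, Igkc. In pre-B cells the RAG recombinase cuts at a recombination signal behind a V gene and joins it to a J segment, by deletion or by inversion of the DNA between them depending on which way the V gene points. Unrearranged V genes and J segments are also transcribed before they are cut, and a productive join gives an abundant spliced V-J-C transcript. Counts per gene do not tell rearranged from unrearranged transcripts, and reads from near-identical V genes can be divided among them in the counting, so values of single V genes are uncertain to that degree.

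In the stage titles of the labels, all 4 mice have a pro-B and a pre-B library, whereas the cell type entries give 1 stage to both libraries of a mouse, so the titles were checked against stage markers. Dntt, the enzyme that adds bases at V(D)J joins and marks pro-B cells, had 19432, 26828, 30149 and 30750 normalized counts in the pro-B libraries of wild-type mice 1 and 2 and Sirt7-/- mice 1 and 2, in this order, and 131, 157, 423 and 3838 in their pre-B libraries. All 4 libraries titled pre-B lay below all 4 titled pro-B. Of 6 pro-B markers 5 were called lower in pre-B in each genotype, and of 4 small pre-B markers 4 were called higher in wild type and 3 in Sirt7-/-. The pre-B library of Sirt7-/- mouse 2 kept the most Dntt, Vpreb1 (3268 against 288 to 982 in the other pre-B libraries) and Igll1 (4122 against 494 to 1324). Sirt7 itself had 2692 and 2533 normalized counts in wild-type and 363 and 366 in Sirt7-/- pro-B libraries, and 5613 and 5219 against 1066 and 821 in pre-B libraries.

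The annotated Igkv genes span chr6:67555497-70704177 of the mouse genome (GRCm38, the build of mm10), from Igkv2-137, the V gene farthest from the J segments, to Igkv3-1, the nearest. Igkj1 starts at 70722562 and Igkc lies at 70726435 to 70726966 on the plus strand. A position could be assigned to 110 members, 97 annotated as V genes and 13 as V pseudogenes. All 42 Igkv rows with a position below the filter were pseudogenes. Of the 110, 46 point the same way as the J and C segments and 64 the opposite way.

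Across the 8 sorted libraries, per kilobase of exon, Igkv6-15 had the highest mean level (6515 normalized counts per kb). It was followed by Igkv1-117 (5494), Igkv10-96 (5340), Igkv3-2 (5091), Igkv8-30 (4761), Igkv1-110 (4719), Igkv1-135 (4358), Igkv4-72 (4271), Igkv4-55 (4055) and Igkv4-68 (3865). These are the 10 members with the highest mean count, and their order per kb rests on libraries that varied widely. The means pool both stages. In pre-B cells alone Igkv1-135 (mean 2323 normalized counts), Igkv4-68 (1319) and Igkv3-2 (1277), among others, lay above Igkv6-15 (839). Igkv1-117 ran from 1031 to 7050 normalized counts over the 4 pro-B libraries and Igkv3-2 from 825 to 6254, a wider range than the whole span of the 10 means. The members nearest to the J segments were not alike in level. Igkv3-1, Igkv3-2 and Igkv3-3 had 992, 5091 and 283 normalized counts per kb, and the farthest, Igkv1-133, Igkv1-135 and Igkv2-137, had 384, 4358 and 991.

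The summed Igkv signal was higher in pro-B than in pre-B cells in 3 of 4 mice and nearly level in wild-type mouse 1. The 118 members summed to 36059 and 100334 normalized counts in the pro-B libraries of wild-type mice 1 and 2 and to 79808 and 83581 in those of Sirt7-/- mice 1 and 2. The pre-B libraries of the same mice held 35002, 37658, 42806 and 37826. The pre-B sums lay within a narrow band, and only the pro-B library of wild-type mouse 1 came near it. Within a mouse the pro-B sum was 1.03-fold and 2.66-fold the pre-B sum in wild type and 1.86-fold and 2.21-fold in Sirt7-/-. As group means, wild type had 68196 ± 45449 (SD, n = 2) in pro-B and 36330 ± 1878 in pre-B cells, a log2 ratio of -0.91. This rested on mouse 2, since without its pro-B library the log2 ratio was 0.01. Sirt7-/- cells had 81694 ± 2668 and 40316 ± 3521, a log2 ratio of -1.02. In a bulk library, fewer cells with a transcript and less of it per cell cannot be told apart.

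Igkc followed the V genes, while the J segments went the other way. Igkc had 234972, 550267, 439264 and 387073 normalized counts in the pro-B libraries and 215431, 240298, 269168 and 246367 in the pre-B libraries, lower in pre-B in every mouse and not called in either genotype (log2 change -0.66 in wild type, adjusted p = 0.17 with limma, and -0.68 in Sirt7-/-, adjusted p = 0.17). Igkj1 to Igkj5 together had 258, 268, 171 and 156 normalized counts in pro-B and 880, 1010, 745 and 820 in pre-B cells. The J sums were 3.41-fold and 3.77-fold higher in pre-B in the wild-type mice and 4.37-fold and 5.26-fold higher in the Sirt7-/- mice, with no overlap between stages. Each of the 5 J segments rose in both genotypes, from a log2 change of 1.55 (Igkj1, wild type, SE 0.33, adjusted p = 0.010) to 2.55 (Igkj5, Sirt7-/-, SE 0.21, adjusted p = 4.3e-04). Reads that Igkj rows receive were few beside those of the V genes, between 1.87 and 7.16 per 1000 Igkv counts in pro-B and between 17.4 and 26.8 in pre-B cells.

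**Figure D1:**
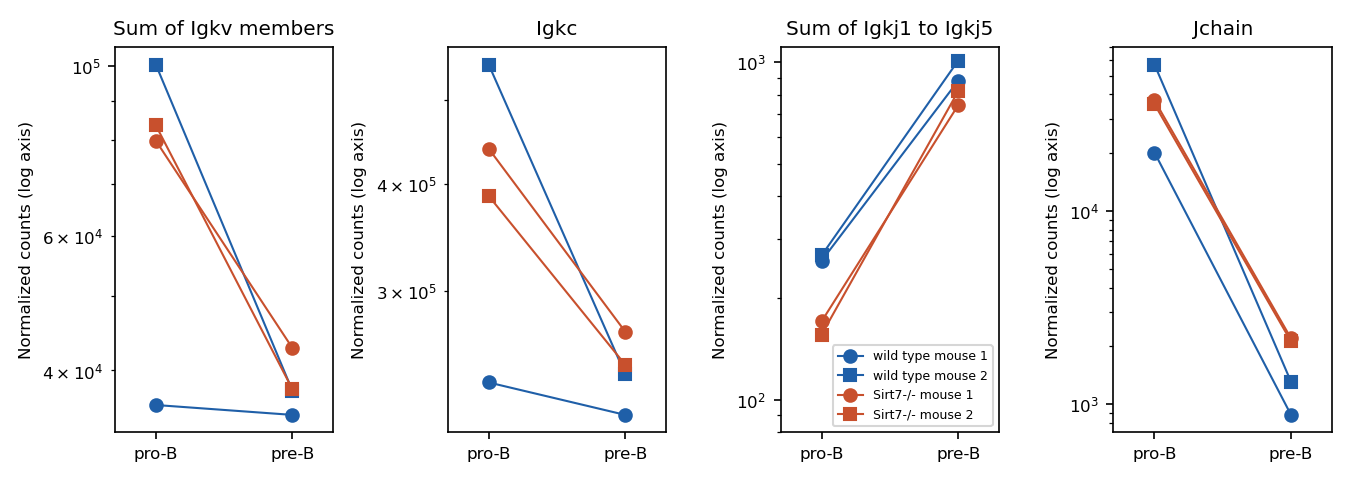
Normalized counts on log axes for each sorted library, with a line joining the pro-B and pre-B library of a mouse (blue wild type, orange Sirt7-/-, circles mouse 1, squares mouse 2). The summed Igkv members, Igkc and Jchain fell or stayed level from pro-B to pre-B in each mouse, whereas the summed J segments rose from 156 to 268 up to 745 to 1010.

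Jchain and the class-switched heavy chain genes, which antibody-secreting cells express, were higher in pro-B than in pre-B cells and followed the pro-B Igkv sums in part. Jchain, which links secreted IgM and IgA, had 20006, 57036, 37239 and 35602 normalized counts in pro-B libraries and 881, 1307, 2191 and 2114 in pre-B libraries. Igha, the IgA heavy chain constant gene, had 105266, 280258, 130194 and 104981 in pro-B and 4891, 15358, 10582 and 10264 in pre-B. As for the Igkv sum, wild-type mouse 2 had the highest pro-B level of both genes, and wild-type mouse 1 the lowest pro-B level of Jchain. Igha did not follow in the other libraries, being lowest in Sirt7-/- mouse 2, whose pro-B Igkv sum (83581) lay above those of mouse 1 of either genotype. The 6 class-switched heavy chain constant genes (Igha, Ighe, Ighg1, Ighg2b, Ighg2c, Ighg3), a list added after the data were seen, were all called lower in pre-B in both genotypes and summed to 153356, 421377, 296544 and 322865 in pro-B and 6668, 18902, 17576 and 21143 in pre-B libraries. Of 10 plasma cell markers 3 were called lower in both genotypes (Jchain, the survival receptor gene Tnfrsf17 and Fkbp11), and the list summed to 51332, 94422, 71332 and 70266 in pro-B and 30436, 34407, 30826 and 31747 in pre-B, with Jchain the most abundant. The other 9 markers without Jchain summed to 31326, 37386, 34093 and 34664 in pro-B and 29555, 33100, 28635 and 29634 in pre-B, so the change of the list sum was mostly that of Jchain. The 7 markers not called had log2 changes between -0.89 (Derl3) and 0.84 (Sdc1, the plasma cell surface marker). Tnfrsf17 was at 0 in 3 of 4 pre-B libraries. The part of such cells in the Igkv levels was not tested.

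Unlike the sum, individual members moved in both directions. In wild-type cells 21 members were called higher in pre-B and 10 lower, with an adjusted p below 0.05 and a log2 change of 1.5 or more in size, where 4.34% of all genes tested were called higher and 9.55% lower. Among the 102 members that passed in both stages, 12 were called higher and 9 lower. In Sirt7-/- cells 17 members were called higher and 11 lower, against 4.22% and 6.03% of all genes, and 8 and 11 among the 102. When libraries were scaled by the total of genes other than immunoglobulin genes, the Sirt7-/- calls split into 13 higher and 13 lower. Within single mice, 84 members were higher and 34 lower in pre-B in wild-type mouse 1, against 40 and 78 in wild-type mouse 2, 51 and 66 in Sirt7-/- mouse 1 and 48 and 70 in Sirt7-/- mouse 2. Part of each higher count was set by the filter, since these splits include the 15 members that passed only through the pre-B libraries. The median log2 change of the members was -0.25 in wild type and -0.21 in Sirt7-/-, beside -0.04 in both over all genes tested. Over the 102 that passed in both stages it was -0.39 in wild type and -0.50 in Sirt7-/-. Of these, whether called or not, 35 were higher and 67 lower in wild type and 37 and 65 in Sirt7-/-. Over all members, including those that passed in a single stage, the wild-type median depended on the pro-B libraries. It was -1.003 without the pro-B library of mouse 1 and 0.63 without that of mouse 2. Leaving out a pre-B library lowered the count of calls to 14 or 13 in wild type and to 15 or 18 in Sirt7-/-.

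Among the 102 members that passed in both stages, the genotypes shared 7 called higher and 7 called lower, and none was called in opposite directions. The shared members were 58.3% of the wild-type and 87.5% of the Sirt7-/- higher calls, and 77.8% and 63.6% of the lower calls. The same shares over all genes are not given here, so these do not show whether Igkv calls were shared more or less often than others. Over all 118 members 13 higher and 7 lower calls were shared, but the direction of members that passed in 1 stage was fixed by the filter. A further 7 of the 102 were called in wild type only and 5 in Sirt7-/- only, but the interaction of stage and genotype was called for none, so these are not shown to differ between genotypes. The direction of change went with the level of the member. Of 36 members with a mean under 100 normalized counts, 16 were called higher and 1 lower in wild type and 14 and 0 in Sirt7-/-. Of 38 members with a mean of at least 500, 1 was called higher and 6 lower in wild type and 0 and 8 in Sirt7-/-. Low members also entered through the filter where they were high, so the same counts are given for members that passed in both stages. Of 20 such members with a mean under 100, 7 were called higher and 0 lower in wild type and 5 and 0 in Sirt7-/-. Spearman's rho between log2 change and log2 mean level was -0.47 in wild type and -0.57 in Sirt7-/- over the 102, and -0.59 and -0.65 over all 118, a description over members that share libraries. Level and change come from the same libraries, and a high pro-B value raises the level and lowers the change. Part of the negative rho can therefore come from shared values alone.

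**Figure D2:**
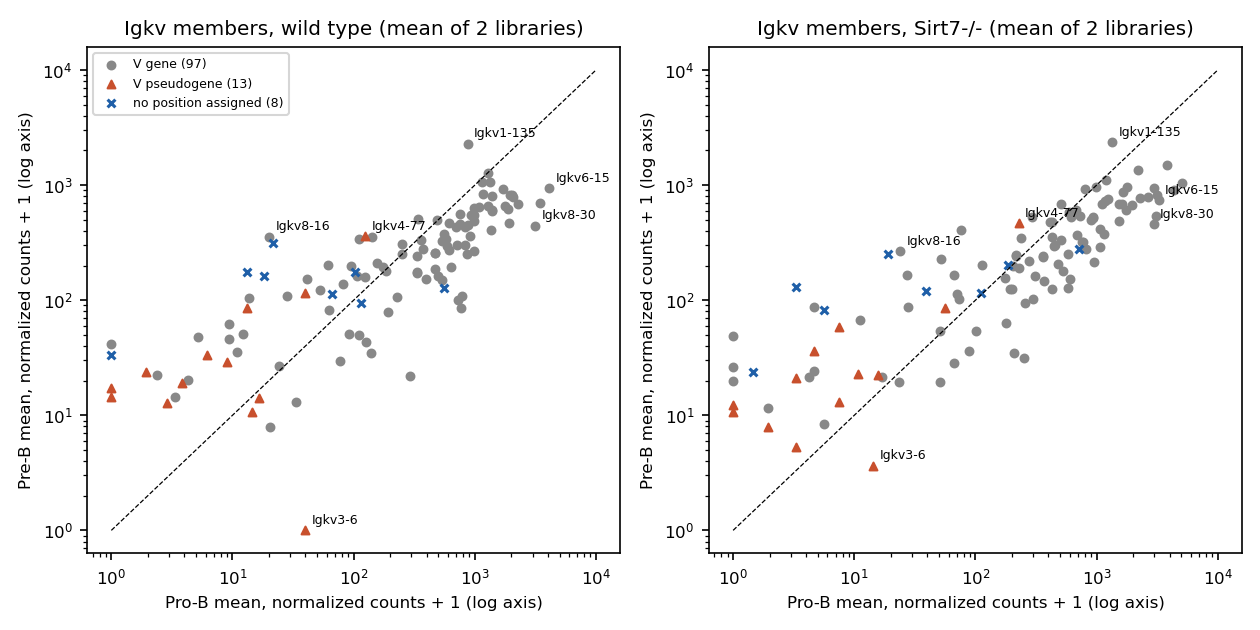
Mean normalized counts plus 1 of 2 pre-B libraries against 2 pro-B libraries for the 118 members, on log axes, in wild type (left) and Sirt7-/- (right), with V genes in grey, V pseudogenes as orange triangles, members without an assigned position as blue crosses and the dashed line at equal levels. Members at high pro-B levels such as Igkv6-15 and Igkv8-30 lie below the line, and members at low pro-B levels such as Igkv8-16 lie above it.

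Among members that fell in both genotypes, Igkv8-30 had the steadiest values. It had 2626, 3655, 3727 and 2210 normalized counts in the 4 pro-B libraries and 473, 417, 520 and 389 in the 4 pre-B libraries. Every pre-B library lay far below every pro-B library, with a log2 change of -2.80 (SE 0.29, adjusted p = 5.7e-04, limma) in wild type and -2.67 (SE 0.29, adjusted p = 0.0010) in Sirt7-/-. Igkv6-15 had 2171, 6029, 2397 and 4133 in pro-B and 781, 1094, 808 and 673 in pre-B, a log2 change of -1.97 (adjusted p = 0.017) and -2.09 (adjusted p = 0.016). Igkv1-110 had 2045, 4796, 2486 and 2847 in pro-B and 629, 765, 847 and 723 in pre-B, a log2 change of -2.17 (adjusted p = 0.0035) and -1.76 (adjusted p = 0.010). Without the pro-B library of mouse 2 these were -1.56 in wild type, still called, and -1.67 in Sirt7-/-, not called (adjusted p = 0.057). Igkv4-91 had 324, 1244, 884 and 1022 in pro-B and 112, 102, 234 and 196 in pre-B, a log2 change of -2.56 (adjusted p = 0.0100) and -2.15 (adjusted p = 0.023). The stages did not overlap for any of these. The wild-type call of Igkv4-91 was lost without the pre-B library of mouse 2 (adjusted p = 0.052), and its log2 change was -1.60 without the pro-B library of mouse 2 and -3.53 without that of mouse 1. Its Sirt7-/- call was lost without any of the 4 Sirt7-/- libraries (0.075 to 0.099). The wild-type call of Igkv6-15 was lost without the pro-B library of mouse 2 (log2 change -1.23, 0.058) or the pre-B library of mouse 1 (0.090), and its Sirt7-/- call without the pro-B library of mouse 2 (-1.70, 0.087) or either pre-B library (0.057 and 0.064).

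Igkv4-72 also fell in both genotypes, from 1649, 2859, 3438 and 2554 normalized counts in pro-B to 583, 779, 948 and 926 in pre-B (log2 change -1.69 and -1.66, adjusted p = 0.0037 and 0.0052). The change fell under the size threshold in wild type without the pro-B library of mouse 2 (-1.29) or the pre-B library of mouse 1 (-1.48), and in Sirt7-/- without the pro-B library of mouse 1 (-1.45). Other members were called lower in a single genotype. Igkv1-117 had 1031, 2849, 7050 and 3102 in pro-B and 829, 810, 1076 and 1011 in pre-B, called in Sirt7-/- (-2.16, adjusted p = 0.018) but not without the pro-B library of mouse 1 (-1.57, adjusted p = 0.089) or either pre-B library (0.071 and 0.064). Igkv9-123 had 54.2, 128, 351 and 154 in pro-B and 48.1, 51.4, 28.8 and 32.7 in pre-B, called in Sirt7-/- (-2.88, adjusted p = 0.0065, and -2.29 without the pro-B library of mouse 1). Igkv13-84 had 273, 1181, 359 and 376 in pro-B and 82.6, 117, 128 and 164 in pre-B, called in wild type (-2.52, adjusted p = 0.017), though past the size threshold only with the pro-B library of mouse 2 (-1.46 without it), and not called without either pre-B library (0.085 and 0.050). Igkv3-6, a V pseudogene, had 58.0, 19.6, 22.0 and 4.61 in pro-B and 0, 0, 3.2 and 2.11 in pre-B, at least 12.9-fold lower in wild-type pre-B cells against a floor of 3 counts per library. It passed the filter through the pro-B libraries alone, so its direction was fixed by the choice of members.

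The members that rose were mostly at low levels in pro-B cells. Igkv8-16 had 21.5, 16.8, 16.5 and 29.5 normalized counts in the pro-B libraries and 364, 349, 301 and 230 in the pre-B libraries. The stages were far apart, with a log2 change of 4.16 (SE 0.35, adjusted p = 3.2e-04) in wild type and 3.51 (SE 0.35, adjusted p = 8.1e-04) in Sirt7-/-. Igkv8-23-1, named here after its values were seen, had 21.5, 19.6, 20.2 and 15.7 in pro-B and 329, 292, 282 and 220 in pre-B, a log2 change of 3.85 (adjusted p = 2.3e-04) and 3.73 (adjusted p = 3.4e-04). Igkv8-18 had 0, 25.2, 3.67 and 3.69 in pro-B and 104, 104, 105 and 66.4 in pre-B, a log2 change of 4.35 (adjusted p = 0.038) and 4.17 (adjusted p = 0.049). Its wild-type log2 change was 2.0 without the pro-B library of mouse 1 and 6.71 without that of mouse 2. Its wild-type call was lost without either pre-B library (0.13 for each), without a filter (0.077), without the trend (0.071) and with edgeR (0.075). Its Sirt7-/- call was lost without any single library (0.11 to 0.18), without a filter (0.095), without the trend (0.086) and with scaling by genes other than immunoglobulin genes (0.053). Igkv1-132 had 0, 8.39, 0 and 0 in pro-B and 37.6, 56.8, 46.9 and 49.5 in pre-B, called in both genotypes but in wild type not without either pre-B library (adjusted p = 0.067 and 0.10) or with edgeR (0.060). Igkv8-18 and Igkv1-132 passed the filter through the pre-B libraries alone.

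Several members were low or at 0 in most pro-B libraries and present in every pre-B library. Igkv18-36, the lower row of Igkv19-93, Igkv7-33 and Igkv20-101-2 passed the filter through the pre-B libraries alone, so that they were higher there was fixed by the choice of members, and their values are a description. Igkv18-36 had 0, 0, 6.42 and 0 in pro-B and 49.1, 32.8, 23.5 and 17.9 in pre-B, at least 13.7-fold higher in wild-type pre-B cells. One row of Igkv19-93 had 0, 0, 0 and 0.923 in pro-B and 34.5, 30.6, 28.8 and 16.9 in pre-B, at least 10.9-fold higher in wild type and 7.61-fold in Sirt7-/-. The second row of that symbol had 76.7, 150, 82.5 and 138 in pro-B and 89.9, 97.3, 114 and 116 in pre-B and was not called. Igkv4-56, on 1 of its 2 rows, had 12.2, 12.1, 4.59 and 0 in pro-B and 174, 173, 88.5 and 169 in pre-B. That row rose in both genotypes, with a log2 change of 3.73 (adjusted p = 0.0098, limma) and 5.70 (adjusted p = 0.0024, and 4.46 without the pro-B library of mouse 2). The other row of the symbol is not given here, so the rise is of this row and not of the gene as a whole. Igkv7-33 had 2.81, 3.73, 0 and 0 in pro-B and 14.6, 24.05, 9.60 and 28.4 in pre-B, called in Sirt7-/-, where it was at least 6.34-fold higher. Igkv20-101-2 had 19.6, 0, 0 and 0 in pro-B and 47.1, 21.9, 30.9 and 20.0 in pre-B, called in Sirt7-/- but not without any single library of that genotype (adjusted p = 0.079 to 0.13), without a filter (0.061), without the trend (0.056) or with edgeR (0.055). Its level in the pro-B library of wild-type mouse 1 was close to the lowest pre-B level.

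Igkv1-135 was the single member with a mean of at least 500 that was called higher, in wild type only. It had 411, 1339, 1338 and 1356 normalized counts in pro-B and 2382, 2192, 2317 and 2402 in pre-B, the highest member in all 4 pre-B libraries, with a log2 change of 1.62 (SE 0.47, adjusted p = 0.031) in wild type and 0.81 (adjusted p = 0.22) in Sirt7-/-. The size of the wild-type change rested on the pro-B library of mouse 1, without which it was 0.77, under the size threshold, and the call was also lost without either pre-B library (adjusted p = 0.12 and 0.099), without a filter, without the trend, and with edgeR and DESeq2 (log2 change 1.40 in both). Its pre-B values spanned a far smaller range than its pro-B values, and no pre-B library fell to the pro-B levels. Igkv1-133, its neighbour, had 33.7, 87.7, 58.7 and 164 in pro-B and 183, 221, 189 and 212 in pre-B and was called in wild type (1.87, adjusted p = 0.041), but not without the pro-B library of mouse 1 (1.19, adjusted p = 0.20) or either pre-B library (0.11 and 0.15), without a filter (0.079), without the trend (0.071) or with edgeR (0.054). Igkv2-137, the outermost V gene, had 164, 985, 1040 and 459 in pro-B and 362, 318, 336 and 309 in pre-B and was not called. The 3 members next to the J segments were not called either. Igkv3-1 had 178, 1093, 361 and 354 in pro-B and 205, 185, 250 and 223 in pre-B. Igkv3-2 had 825, 1835, 6254 and 1374 in pro-B and 1073, 1037, 1907 and 1090 in pre-B, and Igkv3-3 had 6.54, 243, 394 and 16.6 in pro-B and 32.4, 51.4, 39.5 and 28.4 in pre-B. For all 3 the pro-B libraries spread above and below or around the pre-B levels.

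Of the 10 members with the highest mean, Igkv3-2, Igkv10-96, Igkv4-55 and Igkv4-68 were not called in either genotype. Igkv10-96 had 697, 3121, 6734 and 2015 in pro-B and 385, 559, 1295 and 532 in pre-B, and Igkv4-55 had 505, 2252, 885 and 5418 in pro-B and 661, 936, 651 and 988 in pre-B. In each, a single pro-B library stood above all the others. Igkv4-68 was the most even, with 1134, 1426, 2142 and 2207 in pro-B and 1226, 1345, 1275 and 1429 in pre-B. Its change in Sirt7-/- passed the adjusted p (0.010) with a log2 change of -0.69, under the size threshold.

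In all 4 mice the summed pseudogene signal was higher at the pre-B stage, unlike that of the V genes. The 6 pseudogene members that passed in both stages summed to 113, 311, 217 and 423 normalized counts in pro-B and to 592, 632, 614 and 709 in pre-B libraries. Their sum was 5.23-fold and 2.03-fold higher in pre-B in the wild-type mice and 2.83-fold and 1.68-fold higher in the Sirt7-/- mice. Igkv4-77 made up 55.8% to 71.3% of the pre-B sums, and without it the folds were 5.59, 1.85, 1.41 and 4.08. Of the 6, 4 were higher and 2 lower in wild type and 6 higher in Sirt7-/-, whether called or not. The 97 V gene members of the same libraries had log2 ratios of -0.09, -1.47, -0.94 and -1.19. The 6 held between 0.272% and 0.506% of all Igkv counts in pro-B and between 1.43% and 1.87% in pre-B libraries. The most abundant of them, Igkv4-77, named after its values were seen, had 66.4, 182, 81.6 and 373 in pro-B and 330, 394, 422 and 506 in pre-B, and was not called (adjusted p = 0.11 and 0.18). Of all 13 pseudogene members, 4 were called higher in each genotype, 1 was called lower in wild type (Igkv3-6) and 0 lower in Sirt7-/-. Igkv2-116, Igkv4-75 and Igkv8-31 were called higher in both, each losing its call in both genotypes without at least 1 library of that genotype (highest adjusted p = 0.095, 0.16 and 0.20). With the mouse as a block, Igkv4-75 was not called in wild type (0.055), nor Igkv4-75 and Igkv8-31 in Sirt7-/- (0.059 and 0.058). Of the 13, 6 passed the filter through the pre-B libraries alone and Igkv3-6 through the pro-B libraries alone, so their direction was set by the choice of members. Of the 6 that passed in both stages, Igkv4-77 and Igkv2-116 among them, 1 was called higher and 0 lower in each genotype. Igkv2-116, named after its values were seen, had 10.3, 13.99, 11.01 and 1.85 in pro-B and 96.2, 72.1, 61.8 and 52.7 in pre-B libraries, with no overlap.

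Pre-B libraries were more alike than pro-B libraries in how they used the V genes. The leading member of each pro-B library was a different one, Igkv8-30 (7.28% of Igkv counts) and Igkv6-15 (6.01%) in wild-type mice 1 and 2 and Igkv1-117 (8.83%) and Igkv4-55 (6.48%) in Sirt7-/- mice 1 and 2. Igkv1-135 led all 4 pre-B libraries, with 6.80%, 5.82%, 5.41% and 6.35%. The top 10 members held 41.0%, 35.9%, 49.9% and 38.8% of Igkv counts in pro-B and 30.5%, 29.5%, 31.4% and 30.9% in pre-B, with no overlap. It took 15, 17, 11 and 15 members to reach 50% of Igkv counts in the pro-B libraries and 22, 22, 21 and 21 in the pre-B libraries. The effective number of members, the exponential of the Shannon entropy of their shares, was 54.7, 58.3, 45.7 and 53.8 in pro-B and 73.4, 73.3, 70.2 and 71.5 in pre-B.

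Members also varied more between pro-B than between pre-B libraries. The ratio of the highest to the lowest of 4 libraries was taken for members above 3 normalized counts in all 4. Members with a lower value in any library of the stage are left out. In pro-B cells the ratio had a median of 4.01 over 94 members, and 39 of them reached a ratio of 5. In pre-B cells the median was 1.57 over 113 members, and 2 reached a ratio of 5. The 94 and the 113 are not the same members, and the 113 include some that passed the filter only through the pre-B libraries. These medians therefore do not compare the stages member by member. Over the 118 members, log2 profiles of pre-B libraries correlated with each other at r between 0.90 and 0.96, those of pro-B libraries at 0.87 to 0.92 and pro-B with pre-B libraries at 0.75 to 0.85, as a description across members in which the ranges of the pro-B and pre-B pairs overlap. The 118 include 15 members that passed only through the pre-B libraries and 1 only through the pro-B libraries. Lower values across stages were thus partly set by the filter.

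**Figure D3:**
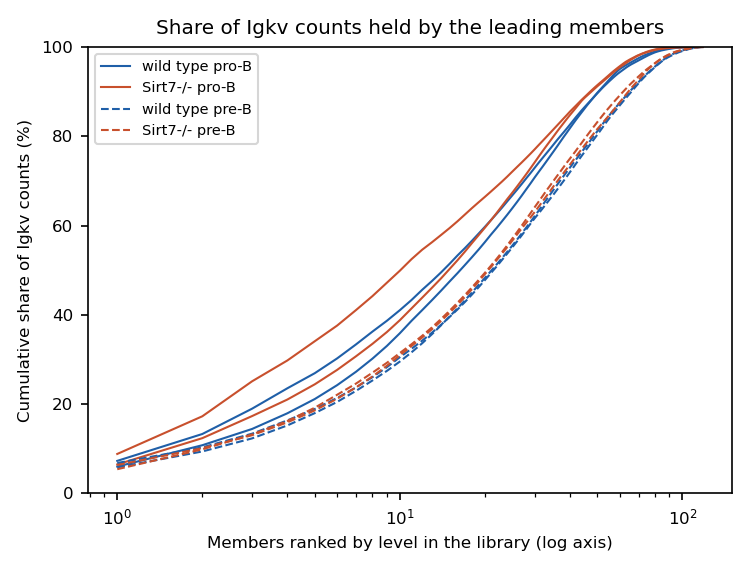
Cumulative share of Igkv counts (%) against members ranked by level within a library (log axis), 1 line per sorted library, solid for pro-B and dashed for pre-B, blue for wild type and orange for Sirt7-/-. The 4 pre-B lines nearly coincide and reach 29.5% to 31.4% at the top 10 members, whereas the pro-B lines lie above them, at 35.9% to 49.9%.

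The position of a member went little with its change between stages. Spearman's rho between log2 change and distance from Igkj1 was 0.11 in wild type and 0.06 in Sirt7-/- over the 110 members with a position, and 0.10 and 0.03 over the 95 of them that passed in both stages. The counts that follow are of those members. Of 28 within 800 kb of Igkj1, 2 were called higher and 2 lower in wild type, and of 21 at least 2400 kb away, 4 and 1. In Sirt7-/- cells these counts were 1 and 2 near and 2 and 4 far. Of 37 pointing the same way as the J segments, 4 were called higher and 3 lower in wild type, and of 58 pointing the opposite way, 5 and 5. In Sirt7-/- cells the counts were 3 and 4, and 2 and 7. By V family, with or without a position, 9 members of family 8 held 3 higher and 1 lower call in wild type and 2 and 1 in Sirt7-/-, and 9 members of family 3 held none in either genotype.

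**Figure D4:**
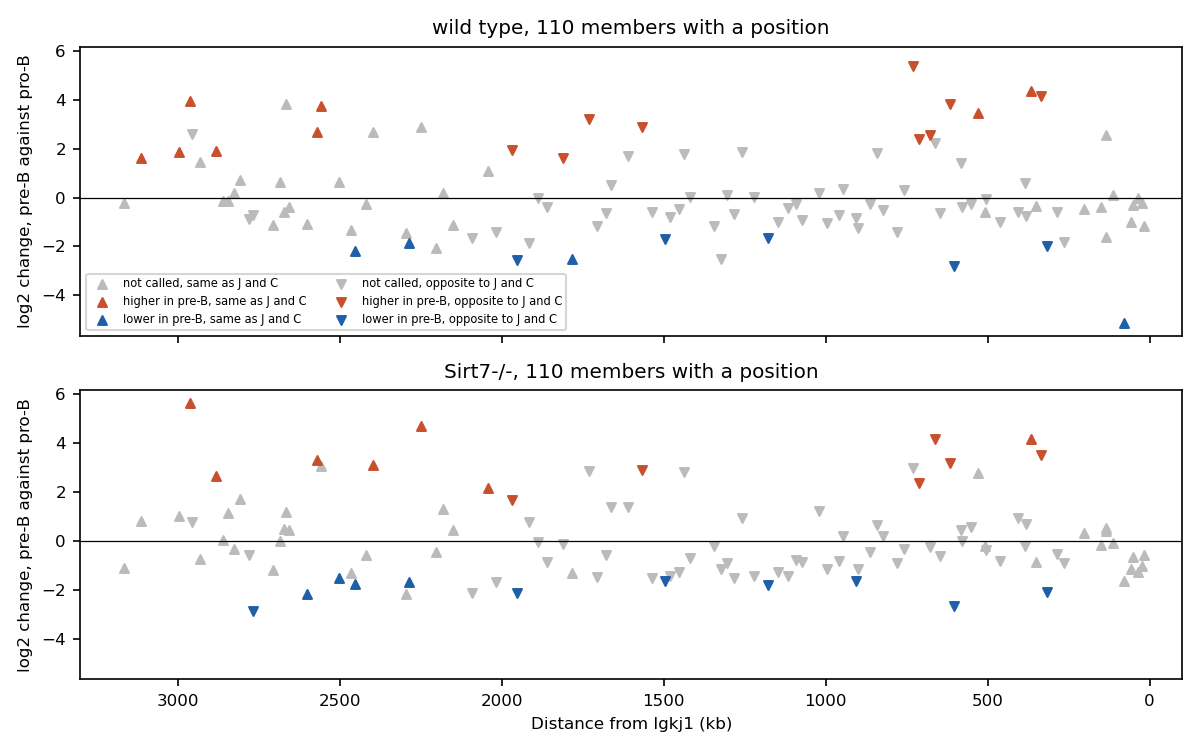
Log2 change between pre-B and pro-B cells of the 110 members with a position against distance from Igkj1 (kb), in wild type (top) and Sirt7-/- (bottom), with upward triangles for V genes pointing as the J and C segments and downward triangles for the opposite way, orange for called higher, blue for called lower and grey for not called. Calls reach from near the J segments to Igkv1-135 (3112 kb) in wild type and Igkv1-132 (2962 kb) in Sirt7-/-, and 8 members without a position are not drawn. Igkv1-132 passed the filter through the pre-B libraries alone. The wild-type call nearest to the J segments is of a pseudogene that passed through the pro-B libraries alone. The direction of members that passed in a single stage was fixed by the filter, so their calls do not show how far calls reach.

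The recombination signals of members that rose and of members that fell could be the same. The signal behind a V gene holds a heptamer and a nonamer parted by a spacer of 12 bases, and it is shown here for members called in opposite directions and a few others, read 5′ to 3′ from the base after the V segment on its own strand in GRCm38, with heptamer and nonamer in capitals. Igkv8-30, which fell in both genotypes, Igkv8-16, which rose in both, and Igkv7-33 carry the same 28 bases. The direction of Igkv7-33, Igkv18-36 and Igkv3-6 was fixed by the filter, so of those shown they are no example of a rise or fall.
Igkv8-30: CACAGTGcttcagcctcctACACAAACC
Igkv8-16: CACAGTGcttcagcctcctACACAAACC
Igkv7-33: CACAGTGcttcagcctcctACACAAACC
Igkv18-36: CACAGTGattcaacatgtcACAAAAACC
Igkv1-135: CACAGTGattcagacccgaACAAAAACT
Igkv1-110: CACAGTGatacagaccctaACAAAAATA
Igkv3-6: TGAAAGTataacaaagtaaAAACAAAAT
Igkv18-36, near 0 in pro-B cells, has the exact consensus heptamer CACAGTG and nonamer ACAAAAACC, and Igkv3-6, a pseudogene, differs from the heptamer at 6 bases. The signals of Igkv8-30, Igkv8-16 and Igkv7-33 lie at chr6:70117033-70117060, chr6:70386644-70386671 and chr6:70058604-70058631, all on the minus strand. Those of Igkv18-36 (minus strand), Igkv1-135, Igkv1-110 and Igkv3-6 (plus strand) lie at chr6:69992437-69992464, chr6:67610509-67610536, chr6:68271268-68271295 and chr6:70642980-70643007.

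The exact heptamer was found behind 81 of 97 V gene members (83.5%), 7 of 13 pseudogene members (53.8%) and 11 of 42 pseudogenes below the filter (26.2%). The exact nonamer was found behind 31, 3 and 0 of them. Among the 95 members with a position that passed in both stages, the exact heptamer was found behind 8 of 10 called higher in at least 1 genotype (80%), 10 of 12 called lower (83.3%) and 61 of 73 not called (83.6%). The octamer ATTTGCAT, the element of immunoglobulin promoters that the factors encoded by Pou2f1 and Pou2f2 bind, was searched on both strands (reverse complement ATGCAAAT) from 250 bases before to 50 bases after each gene start. It was present in 79 of 110 members (71.8%) and 8 of 42 pseudogenes below the filter (19%), at a median of 92 bases before the start in the members that had it, and in 1.74% of 32851 RefSeq promoters of the same length. Among the same 95 members it was found in 8 of 10 called higher, 8 of 12 called lower and 55 of 73 not called.

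Genes that act on the kappa locus changed with stage in part. Rag1, a subunit of the recombinase, rose in wild type from 15744 and 24546 to 53920 and 71115 normalized counts (log2 change 1.66, adjusted p = 0.0036). In Sirt7-/- it had 17487 and 23795 in pro-B and 32407 and 45261 in pre-B (0.91, adjusted p = 0.041, under the size threshold). Rag2 was not called, and Dntt fell in both genotypes. Of 20 regulators of kappa transcription and recombination, 2 were called higher in wild type and 3 in Sirt7-/-, and none lower. Spib, which encodes an Ets factor active at light chain enhancers, rose from 50682, 52162, 39588 and 38557 to 196366, 208514, 172811 and 153494 (log2 change 1.98 and 2.06). Ikzf3 rose in both genotypes (1.57 and 1.94) and Pou2f2 passed the size threshold in Sirt7-/- (1.48 in wild type and 1.87 in Sirt7-/-). Of the surrogate light chain genes, which pair with the heavy chain before a light chain is made, Vpreb1, Vpreb2 and Igll1 fell in both genotypes, 3 of 4.

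Lambda light chain genes rose from pro-B to pre-B, 9 of 11 tested in wild type and 8 in Sirt7-/-, with 12 listed. They summed to 6942, 16241, 7569 and 6282 normalized counts in pro-B and 60014, 36370, 38758 and 30115 in pre-B libraries, without overlap, the reverse of the kappa sums. The lambda constant gene Iglc2 had 2180, 3177, 2232 and 1312 in pro-B and 16857, 11021, 13075 and 9480 in pre-B (log2 change 2.37 and 2.70, adjusted p = 0.0018 and 0.0016). Of the lambda V genes, Iglv3 rose in both genotypes (3.07 and 2.99), Iglv2 in Sirt7-/- (1.96, adjusted p = 0.038), and Iglv1 was not called (adjusted p = 0.12 and 0.24).

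Markers of other cells changed alongside. Of 10 immature and mature B cell markers 8 were called higher in pre-B in each genotype, and they summed to 50563, 57180, 66876 and 53659 in pro-B and 319709, 195794, 467459 and 306973 in pre-B, with Cd74 the most abundant. Of 9 T cell markers 7 in wild type and 5 in Sirt7-/- were called lower, with sums between 6747 and 7337 in pro-B and between 3148 and 3850 in pre-B and Lck the most abundant. Of 8 myeloid markers 2 and 3 were called lower, with sums of 33570, 24513, 26864 and 9531 in pro-B and 15208, 14887, 11498 and 10674 in pre-B (most abundant Itgam). Erythroid markers summed to 48562 and 73114 in both libraries of Sirt7-/- mouse 2 and to between 6264 and 17222 in the others (most abundant Hba-a1), with 1 of 8 called lower in wild type and 0 in Sirt7-/-. Stroma markers summed to at most 626 (most abundant Cxcl12) and none of 6 tested was called. The part of these cells in the Igkv values was not tested.

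Between genotypes the kappa V genes did not differ past the threshold at either stage. In pro-B cells 0 of 118 members were called between Sirt7-/- and wild type, where 0.0623% of all genes were called by adjusted p alone (below 0.05), and 15 members (12.7%) had an unadjusted p under 0.05, 11 of them higher in Sirt7-/-, beside 5.94% of all genes. The member with the smallest p was Igkv4-68, with 1134 and 1426 normalized counts in wild-type and 2142 and 2207 in Sirt7-/- pro-B libraries (log2 change 0.77, SE 0.14, adjusted p = 0.35, limma). In pre-B cells 0 members were called, where 0.085% of all genes were, and 0 had an unadjusted p under 0.05, beside 13.6% of all genes. The interaction of stage and genotype was called for 0 members, where 0.00567% of all genes were called, and 7 members (5.93%) had an unadjusted p under 0.05, beside 5.43% of all genes. The edgeR quasi-likelihood test on recovered reads gave 0 in all 3 comparisons, and DESeq2 gave 4, all higher in Sirt7-/- pro-B cells, 0 and 1. The shares of all genes above are those of limma and do not apply to the counts of edgeR and DESeq2. The log2 ratio of the summed Igkv means was 0.26 in pro-B and 0.15 in pre-B cells. The direction of the pro-B ratio depended on the wild-type libraries, since the log2 ratio was -0.30 without mouse 1 and 1.18 without mouse 2. These comparisons use the same libraries as those of stage.

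Both sets of cultured pro-B cells had far fewer Igkv transcripts than the sorted cells. The table of the Pax5-/- cells lists 109 of the 115 member symbols, 50 of them at 0 in all 8 libraries, and 14 members passed the filter among 13345 genes tested. The members summed to 639 and 563 normalized counts with EV, 732 and 673 with Pax5 WT, 889 and 641 with K198Q and 654 and 510 with K198R, so that both Pax5 WT libraries lay above both EV libraries, both K198Q libraries lay above them by as little as 641 against 639, and K198R overlapped with EV. Igkv4-91 alone gave 116 and 99.3 of the K198Q sums, so the separation of K198Q from EV rested on that member. That of Pax5 WT from EV rested on Igkv9-124, which gave 69.4 and 102 of the Pax5 WT sums and 6.71 and 16.9 of the EV sums. The Igkj rows were listed at 0. The tables were scaled separately. As a share of all normalized counts the members held between 0.0017% and 0.0031% in Pax5-/- cells and between 0.0014% and 0.0041% in cultured 129Sv cells, beside 0.0649% to 0.194% in the sorted libraries. Igkv14-111 led every library and held between 27.9% and 43.2% of Igkv counts. Igkc had 11.8 and 11.9 with EV, 81.8 and 116 with Pax5 WT, 225 and 177 with K198Q and 18.5 and 1.0 with K198R, and no comparison with EV was called (adjusted p = 0.15, 0.14 and 0.57).

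In these cells a single member rose with each of 2 Pax5 forms. Igkv9-124 had 6.71 and 16.9 normalized counts with EV, 69.4 and 102 with Pax5 WT, 43.7 and 57.5 with K198Q and 26.6 and 58.1 with K198R. Both libraries of every Pax5 form lay above both EV libraries, and the difference of Pax5 WT from EV was called, 7.28-fold with a log2 change of 2.86 (SE 0.53, adjusted p = 0.033), 1 of 14 members where 1.52% of all genes were called. The K198Q and K198R differences from EV were not called (log2 change 2.12, adjusted p = 0.21, and 1.78, adjusted p = 0.083), and the difference between forms was not called either (K198Q against Pax5 WT adjusted p = 1.0, K198R against Pax5 WT 0.49). The Pax5 WT call was lost without EV replicate 1 (adjusted p = 0.18) and without Pax5 WT replicate 1 or 2 (0.12 and 0.25), without a filter (0.073) and without the trend (0.067).

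Igkv4-91 was seen almost only with K198Q. It had 0 and 0 normalized counts with EV, 0 and 0.998 with Pax5 WT, 116 and 99.3 with K198Q and 0 and 0 with K198R. K198Q lay at least 35.9-fold above EV (adjusted p = 0.0053), the single member called where 0.659% of all genes were, and the call was lost without K198Q replicate 1 or 2 (adjusted p = 0.10 and 0.071). Against Pax5 WT, K198Q had the same bound and an adjusted p of 0.064 and was not called, but it was called with a pseudocount of 5 (adjusted p = 0.011), without a filter (0.033), without the trend (0.0081) and with the replicate number as a block (0.030). In that comparison 0 members were called where 0.0225% of all genes were, with 1 of 14 at an unadjusted p under 0.05, beside 3.46% of all genes. K198R against EV gave 0 of 14 members where 4.59% of all genes were called, with 4 at an unadjusted p under 0.05, beside 22.9% of all genes. K198R against Pax5 WT gave 0 where 1.6% were called, with 2 at an unadjusted p under 0.05, beside 12.7%. With the replicate number as a block, K198Q against EV gave 2 members and K198R against EV gave 2. The shares of all genes given here are of the fits without the block. The 3 comparisons with EV share its libraries. In the sorted cells Igkv4-91 was one of the members called lower at the pre-B stage in both genotypes.

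In cultured 129Sv pro-B cells the table lists 99 member symbols, and 24 members passed the filter among 13651 genes tested. The members summed to 812 and 784 normalized counts in wild type with EV, 698 and 1119 in Sirt7-/- with EV, 815 and 1154 with Pax5 WT and 402 and 808 with K198R, with overlap between most groups. The Pax5 WT libraries lay just above wild type (815 against 812) and just above K198R (815 against 808). Igkv3-2 led the libraries other than K198R, with 137, 155, 106, 185, 138 and 125 normalized counts, and had 89.6 and 87.9 with K198R, where Igkv19-93 led with 98.6 and 143. Igkc had 1295 and 1455 in wild type EV, 1753 and 3053 in Sirt7-/- EV, 1601 and 2007 with Pax5 WT and 1019 and 2395 with K198R, and was called in none of the 3 comparisons (adjusted p = 0.66, 0.86 and 0.52).

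With EV, 0 of 24 members were called between Sirt7-/- and wild-type cells, where 0.557% of all genes were called, and 2 had an unadjusted p under 0.05, beside 9.68% of all genes. With the replicate number as a block 1 member was called, and the share of all genes under the block is not given here. One of the 2 at an unadjusted p under 0.05 was Igkv19-93, with 13.7 and 23.6 normalized counts in wild type and 48.1 and 61.0 in Sirt7-/- (log2 change 1.54, adjusted p = 0.16). Pax5 WT against EV in Sirt7-/- cells gave 0 members where 0.0366% of all genes were called, with 0 at an unadjusted p under 0.05, beside 9.91%. K198R against EV gave 2 lower and 0 higher, where 4.83% of all genes were called, and 5 members with the block. The 4.83% is of the fit without the block. Igkv6-20 had 54.0 and 98.3 normalized counts with EV and 10.9 and 9.24 with K198R, a log2 change of -2.74 (SE 0.41, adjusted p = 0.013). Igkv1-135, which leads pre-B cells, had 10.1 and 13.7 with EV, 20.5 and 25.5 with Pax5 WT and 0 and 1.86 with K198R, at least 3.96-fold lower with K198R than with EV (adjusted p = 0.044). Both calls were lost without any single EV or K198R library (adjusted p = 0.057 to 0.095 for Igkv6-20 and 0.076 to 0.19 for Igkv1-135), and that of Igkv1-135 also with a pseudocount of 5 (0.058) and without a filter (0.061). The comparisons within Sirt7-/- cells share the EV libraries. Of 10 immature and mature B cell markers 8 were tested, and 3 were called higher and 1 lower with K198R against EV, with sums of 5827 and 8387 with EV and 21376 and 52092 with K198R (most abundant Ighd). Their part in the Igkv values was not tested.

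**Figure D5:**
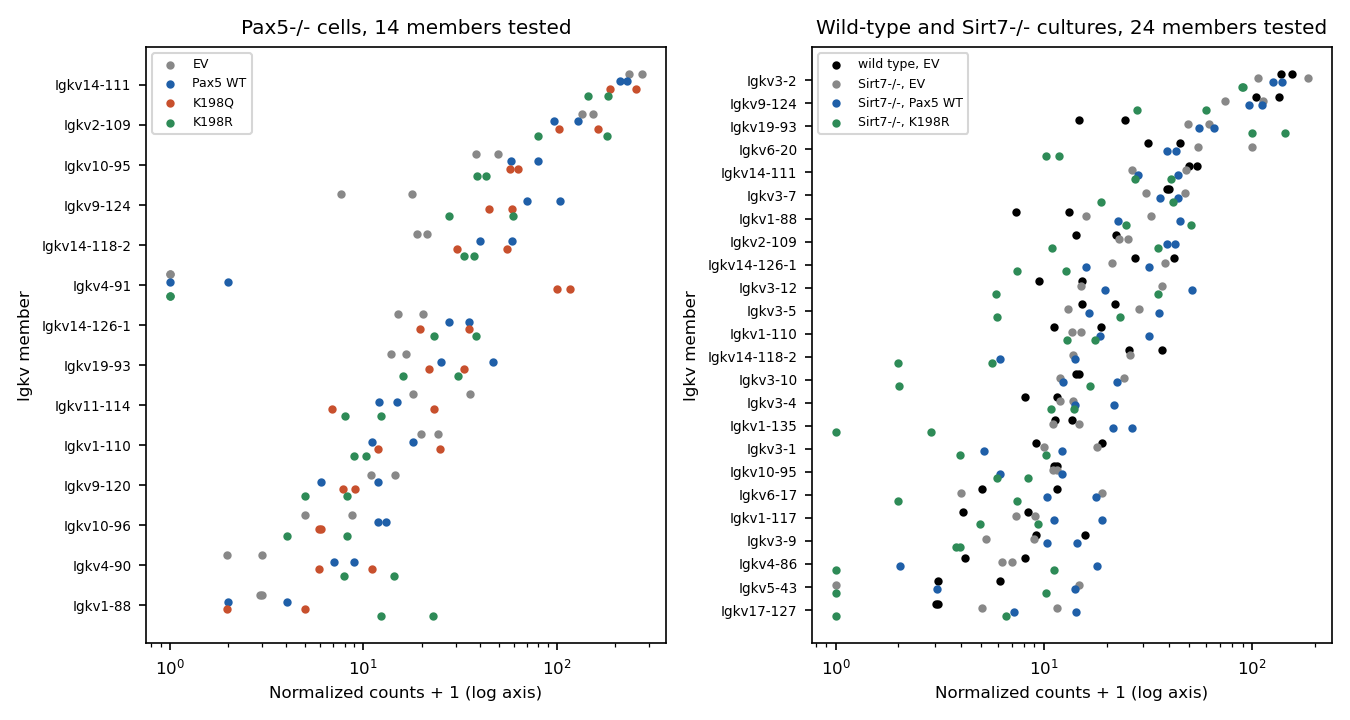
Normalized counts plus 1 on a log axis for each tested member in Pax5-/- cells (left, 14 members) and cultured 129Sv cells (right, 24 members), 1 point per library, colored by genotype and Pax5 form. Igkv4-91 lies at 99.3 and 116 with K198Q and at or near 0 in the other libraries, and Igkv6-20 is lowest with K198R.

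Pax5 peaks per Mb were fewer over the kappa locus than genome-wide in each list, though the counts were small, above all with K198Q (4 and 3). ChIP reads of low mapping quality were removed before peaks were called, so peaks in near-identical V genes may be missed. How far this lowered the counts was not tested. In 1 list, that of the second K198R replicate by its label, the names of the peaks bear a different replicate number, so which replicate it holds is not settled. The anti-Pax5 lists held 10646 and 11830 peaks with Pax5 WT, 3750 and 3957 with K198Q and 12158 and 13997 with K198R, of which 6 and 9, 4 and 3, and 9 and 11 lay between Igkv2-137 and the end of Igkc. This was 1.89 and 2.84, 1.26 and 0.95, and 2.84 and 3.47 peaks per Mb, below the genome-wide 3.91 and 4.34, 1.38 and 1.45, and 4.46 and 5.14 of the same lists. Within 1 kb of a member start lay 1 and 2 peaks with Pax5 WT, 1 and 1 with K198Q and 5 and 2 with K198R. Merged over the lists these were 15 regions, 3 of them in all 6 lists, 1 in 5, 3 in 2 to 4 and 8 in a single list.

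One region found in all 6 lists covered the promoter of Igkv15-103. Its fold over input at the summit was 8.28 and 16.7 with Pax5 WT, 7.80 and 5.63 with K198Q and 8.52 and 12.5 with K198R, with −log10 q between 7.42 and 45.8. Its strongest summit lay 79 bases before the gene start, next to the octamer, which begins 71 bases before it and is in capitals in the promoter shown here because a peak covers it (chr6:68437190-68437489, GRCm38, plus strand).
Igkv15-103 promoter: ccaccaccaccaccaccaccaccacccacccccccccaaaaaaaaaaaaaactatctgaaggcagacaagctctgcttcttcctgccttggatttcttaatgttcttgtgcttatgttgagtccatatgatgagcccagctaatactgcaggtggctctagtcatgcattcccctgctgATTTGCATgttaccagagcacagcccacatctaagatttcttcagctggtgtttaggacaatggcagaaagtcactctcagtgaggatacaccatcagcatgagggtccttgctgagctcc
Igkv15-103, named here for its peak, had 825, 1150, 508 and 1639 normalized counts in pro-B and 261, 267, 355 and 220 in pre-B cells. It was called lower in both genotypes, with a log2 change of -1.88 (adjusted p = 0.027) and -1.70 (adjusted p = 0.042). The wild-type call was lost without any single library of that genotype (adjusted p = 0.069 to 0.13). The Sirt7-/- call was lost without the pro-B library of mouse 2 (-0.86, adjusted p = 0.14) or either pre-B library (0.075 and 0.17), and with the mouse as a block (0.067).

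The other regions in all 6 lists lay at chr6:68210949-68211333, 8.8 kb before Igkv2-112 (fold 5.16 to 28.4), and at chr6:70040833-70041296, 3.6 kb after the start of Igkv8-34 (fold 9.0 to 17.6), the latter with an octamer in the 201 bases around its summit. A region in 5 lists, all but K198Q replicate 2, lay at chr6:70709209-70709982, between the last V gene, Igkv3-1, and Igkj1, 13.1 kb before the latter. Its fold over input was 8.13 and 12.1 with Pax5 WT, 8.56 with K198Q and 12.6 and 5.40 with K198R. This interval between V and J segments is known to hold elements that govern which V genes are joined, and the 201 bases around the strongest summit are shown for that reason (chr6:70709348-70709548, GRCm38, plus strand).
V to J interval peak: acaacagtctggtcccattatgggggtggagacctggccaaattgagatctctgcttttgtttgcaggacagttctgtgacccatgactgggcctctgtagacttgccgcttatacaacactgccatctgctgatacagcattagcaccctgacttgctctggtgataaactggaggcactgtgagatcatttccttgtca
A further region, noted after the lists were seen, lay outside the V genes at chr6:70735484-70735937, 8.7 kb beyond the end of Igkc, and was present in all 6 lists (fold 6.16 to 15.8). No test compares the forms at these regions, since peaks were called in each list separately.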

How the data were processed

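RNA was measured in 24 libraries and Pax5 binding in 6 peak lists. Per the methods, Salmon (mm10, GC bias correction) and Tximeta gave the authors their values per gene, and they deposited median-of-ratios normalized counts from DESeq2, a signal and not raw counts. Of the values above 0 in the sorted-cell data, 100% were whole multiples of 1 step per library (tolerance 0.001), against 0.133% to 0.250% per library in the cultured-cell data. The stated method therefore does not settle how the sorted-cell reads were counted, or how reads of near-identical V genes were divided. Per the labels and methods, the authors aligned ChIP reads with Bowtie2, filtered them by mapping quality, removed duplicates and called peaks per sample over input with MACS2. The deposited lists give fold over input, a ratio, and −log10 q.

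Normalized counts plus 1 were put on the log2 scale and fitted with limma 3.58.1 (R 4.3.3), fitting all 4 groups per table jointly, with a variance trend and Benjamini-Hochberg adjustment over every gene tested. A call needed an adjusted p below 0.05 and, for stage and Pax5-/- comparisons, a log2 change of 1.5 or more in size. An exact test of 2 against 2 libraries cannot go below p = 0.33. The fits were also run on simulated counts with 1 fixed spread for every gene, which does not stand for the wider spread of the members between pro-B libraries. Alternatives were another pseudocount (5), filter, trend, scaling, a block, leaving out each library, and edgeR 4.0.16 and DESeq2 1.42.0 on recovered reads.

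Stage libraries are paired by mouse, from the labels. Deviations from the group means of the same mouse correlated at r = 0.08 in wild type and 0.16 in Sirt7-/-. Members and lists were chosen with earlier results of these data known. The genes named were the 10 with the highest mean, up to 5 called higher and 5 called lower per comparison whose groups did not overlap, the 3 nearest to and 3 farthest from the J segments and the leading member of each library, with the exceptions marked. Positions are from GENCODE M21, sequences from the GRCm38 reference genome and promoter background from RefSeq. Symbols on 2 rows (4 of 158) and those without a match were given no position. The input libraries were not used here. The full sorting gate is not reported here.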

Additional observations from a re-analysis of the deposited data

How the results depend on the processing

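The 43 calls of V genes named in the text were each run under the alternatives. None of them changed direction, 16 were kept under every alternative run and 27 were lost under at least 1. Both the kept and the lost calls include members that passed the filter in a single stage. The direction of those members was fixed by the filter, so a kept direction is no finding for them. Beside the losses given with each gene, Igkv15-103 lost its call in both genotypes without a filter and without the trend (adjusted p = 0.058 to 0.084), and Igkv4-91 in Sirt7-/- without the trend (0.0503). Igkv4-75 lost its call in both genotypes without a filter, without the trend and with edgeR, in wild type also with DESeq2 (0.054 to 0.10 in all), and in Sirt7-/- also with the other scaling (0.053). Igkv8-31 lost its call in wild type with edgeR (0.053) and in Sirt7-/- with a pseudocount of 5 (0.080) and without a filter (0.053). Shares of all genes called under an alternative, a block or a left-out library are not given here. Counts under them therefore cannot show whether a change was particular to the members. Counts of calls moved by more than 1.5 times as follows, and the cause was not tested unless fewer libraries were used. DESeq2 called 4 members between genotypes in pro-B cells and 1 for the interaction, in place of 0. For Pax5 WT against EV in Pax5-/- cells the count of 1 became 0 without a filter and 0 without the trend. For K198R against EV the 0 became 1 without the trend, and for K198Q against Pax5 WT it became 1 with a pseudocount of 5, without a filter, without the trend and with the block. For K198R against EV in Sirt7-/- cells the 2 became 1 with a pseudocount of 5 and 1 without a filter. Scaled by genes other than immunoglobulin genes, the log2 ratio of the Sirt7-/- stage sums was -1.12.

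With the mouse as a block the stage comparisons gave 32 calls in wild type and 29 in Sirt7-/-, and no count there moved by over 1.5 times. The block ended the calls of Igkv4-75 in wild type and of Igkv4-75, Igkv8-31 and Igkv15-103 in Sirt7-/- and no other of the named calls for stage. In the other comparisons the labels give only a number. The methods state that replicates were made on different days but not that a number marks the same day in every group. With the number as a block, K198Q against EV gave 2, K198R against EV 2, Sirt7-/- against wild type with EV 1 and K198R against EV in Sirt7-/- cells 5. Same-numbered libraries correlated at r between 0.26 and 0.38 in Pax5-/- cells and between 0.16 and 0.43 in cultured 129Sv cells.

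Leaving out 1 library at a time, with a lone library assumed to vary like the other groups, gave 13 to 42 calls for stage in wild type, 15 to 28 in Sirt7-/-, 0 to 1 between genotypes in pro-B cells, 0 to 1 for Pax5 WT, K198Q and K198R against EV in Pax5-/- cells, and 0 to 0 for K198R in Sirt7-/- cells. The summed Igkv log2 ratio between stages ran from -1.47 to 0.0108 in wild type, reversed without wild-type pro-B replicate 2 (0.0108), and that between genotypes in pro-B cells from -0.30 to 1.18. No peak count changed by more than 1.5 times with a q-value of 0.001 or with summits inside the interval. With 2 libraries per group and members under about 10 normalized counts, small differences were not detectable.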
